A study of Mus musculus with 9 samples.

Results

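Members of the ADAMTS family of secreted metalloproteases were followed in 3′ mRNA sequencing of cultured mouse synovial fibroblasts (SFs). The 10 genes, Adamts1, Adamts2, Adamts4, Adamts5, Adamts7, Adamts9, Adamts12, Adamts14, Adamts15 and Adamts16, were chosen by name from the 49548 genes of the deposited tables, and all 10 were found there. The cells were taken from ankles of CBA C57BL/6J mice aged 8 weeks and had been depleted of CD45+ cells at passage 1. There were 3 libraries of wild-type (WT) SFs, 3 of untreated SFs from hTNFtg mice, which carry a human TNF transgene and develop destructive polyarthritis, and 3 of hTNFtg SFs treated with infliximab, an antibody against TNF, at 1 µg/mL for 48 hours. For WT and untreated hTNFtg SFs the labels state that no treatment was given, and the methods speak of vehicle. The methods call the replicates biological but do not say whether each came from a separate mouse or culture, so p-values measure the spread between these libraries.

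ADAMTS proteases are secreted as zymogens, and thrombospondin repeats beside the catalytic domain hold them to the extracellular matrix. Aggrecanases cut aggrecan, the large proteoglycan that lets cartilage resist compression, and several of them also cut versican, its relative in soft tissues. Other members remove the N-terminal propeptide of fibrillar procollagens or cut cartilage oligomeric matrix protein (COMP). In joints the family is best known for the loss of aggrecan from arthritic cartilage, to which synovium and chondrocytes can both contribute proteases.

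The deposited values are counts per gene, normalized by the authors by a method that is not named and then rounded. They were read here as reads times 1 factor for each library, which the values show plainly only for hTNFtg replicate 1. A read was thus estimated to be worth 6.23 normalized counts in replicate 1 of hTNFtg, against 0.534 to 1.10 elsewhere. This library held about 613345 reads on genes and the others 3829110 to 9015764. A gene of 3 reads thus stands at 18.7 normalized counts in hTNFtg replicate 1, and its low values carry the largest counting error. Fibroblast markers (7 genes) summed to 34847 to 50599 normalized counts in all 9 libraries, and endothelial markers (5 genes) to 0 to 5. The fibroblast sum is mostly collagen transcripts, and 1 of its genes, Pdpn, was raised in hTNFtg SFs (means of 925 in WT, 4088 in hTNFtg and 2698 with infliximab). Markers of mural cells (5 genes) summed to 108 to 203 in WT, 86 to 249 in hTNFtg and 188 to 339 with infliximab, and those of the synovial lining (3 genes) to 316 to 392, 394 to 564 and 323 to 631. Macrophage markers (7 genes, Lyz2 the highest) summed to 169 to 526 in WT, 2677 to 5890 in hTNFtg and 1664 to 3237 in infliximab-treated SFs, and none of the 7 was at 0 in any hTNFtg or infliximab library. Chondrocyte markers (7 genes) summed to 1531 to 2435, 453 to 682 and 616 to 1028 in the same order, with Col9a1 at 0 in every hTNFtg library. Sox9 was the highest of them in WT (1160 to 1939, against 174 to 272 in hTNFtg). Without it the other 6 summed to 312 to 496 in WT, 274 to 410 in hTNFtg and 335 to 456 with infliximab, which overlap, and Col2a1 (means of 68.3 in WT and 66.7 in hTNFtg) and Col11a1 (284 and 278) differed little. Hepatocyte markers (6 genes) summed to 678 in infliximab replicate 3 and to at most 43 elsewhere. In bulk RNA, fewer cells of a type and less RNA per cell cannot be told apart.

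Adamts1 and Adamts5 lie next to each other on chromosome 16 of mm10, both on the minus strand. Adamts1 spans 85793827 to 85803113 with 9 annotated exons and Adamts5 spans 85858170 to 85901125 with 8 exons, leaving a gap of 55056 bases. Within 500 kb on either side the table holds 2 other genes, Cyyr1 and the pseudogene Gm2541, whose group means were at most 4.67 normalized counts. The other 8 members lie on 7 other chromosomes, with Adamts7 and Adamts15 both on chromosome 9. The gene models limit 3 of the counts. Adamts7 (chromosome 9, 90163069 to 90208071, plus strand) overlaps Tbc1d2b on the opposite strand by 6045 bases at its 3′ end, where 3′ reads fall, and the counting strand is not given in the sources used here. Reads of Adamts7 and Tbc1d2b can therefore not be told apart there. The GENCODE vM21 models of Adamts5 and Adamts12 run 1997 and 2364 bases past the deposited 3′ ends, so reads at those ends may have gone uncounted.

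RefSeq start sites (GRCm38.p6) were matched for 5 members, Adamts1, Adamts2, Adamts9, Adamts12 and Adamts14, and the 250 bases before the start are given for the 3 of them that were raised in hTNFtg SFs, each in the direction of its gene. They lie at chr16:85803114-85803363 on the minus strand (Adamts1), chr10:61273420-61273669 on the minus strand (Adamts14) and chr15:11064523-11064772 on the plus strand (Adamts12). Capitals mark a TATA box (TATAAA) and GC boxes (GGGCGG, or CCGCCC where it reads on the other strand).

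Adamts1: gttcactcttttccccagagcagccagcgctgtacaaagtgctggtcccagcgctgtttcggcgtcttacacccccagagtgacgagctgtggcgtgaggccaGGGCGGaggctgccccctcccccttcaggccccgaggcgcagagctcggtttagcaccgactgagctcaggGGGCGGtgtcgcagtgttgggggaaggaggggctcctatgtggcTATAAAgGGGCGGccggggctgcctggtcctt

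Adamts14: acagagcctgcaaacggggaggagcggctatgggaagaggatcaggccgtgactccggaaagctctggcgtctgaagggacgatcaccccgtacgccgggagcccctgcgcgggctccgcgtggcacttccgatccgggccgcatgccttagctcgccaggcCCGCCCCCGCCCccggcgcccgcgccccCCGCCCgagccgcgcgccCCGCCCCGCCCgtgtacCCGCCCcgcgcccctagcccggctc

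Adamts12: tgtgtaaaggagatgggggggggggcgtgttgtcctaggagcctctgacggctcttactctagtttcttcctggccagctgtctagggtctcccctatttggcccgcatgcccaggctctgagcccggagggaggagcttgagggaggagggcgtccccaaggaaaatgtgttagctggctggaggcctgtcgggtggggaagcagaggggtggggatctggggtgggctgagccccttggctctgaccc

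Both strands were also searched for the AP-1 motif TGANTCA and the NF-kB motif (GGG, any 2 bases, TTTCC). None of the 4 motifs was found in all 3 sequences. Adamts1 has a TATA box 32 to 27 bases before the start and 3 GC boxes, the nearest 25 to 20 bases before it. Adamts14 has 6 GC boxes, all on the other strand, 2 of which share a base, and Adamts12 has none of the 4 motifs. Of 32851 mouse promoters of this length, 12.4% hold the TATA box, 32.7% a GC box, 6.75% the AP-1 motif and 1.41% the NF-kB motif. No AP-1 or NF-kB match lay in any of the 5 promoters, which says only that these letters are not in this window. GC content was 65.6% for Adamts1, 76.4% for Adamts14 and 63.2% for Adamts12, against a median of 52.4% over all promoters. It was also high for the matched members that were not raised, at 78% for Adamts2 and 71.2% for Adamts9.

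In WT SFs, 3 members carried most of the family's signal. Because 3′ reads do not grow in number with transcript length, normalized counts can be set side by side between genes, up to differences in how well each 3′ end was counted. Adamts5 had the highest mean at 521 ± 172 normalized counts (SD, n = 3), at the 93.7th percentile of the genes above 0 in WT. Adamts2 at 460 ± 93.4 and Adamts1 at 325 ± 71.8 followed, and the libraries of these 3 genes overlapped. Adamts4 (58.3 ± 10.8) and Adamts16 (44.7 ± 9.50) formed a lower step and overlapped each other. Adamts14 (11.3), Adamts9 (9), Adamts7 (5.33), Adamts12 (2.33) and Adamts15 (1.33) were all under 20 normalized counts in every WT library.

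The first comparison, hTNFtg versus WT SFs, asks which genes change with arthritis. Of the 10 members, 5 were raised (Adamts1, Adamts5, Adamts7, Adamts12 and Adamts14), 1 was lowered (Adamts16), and Adamts2, Adamts4, Adamts9 and Adamts15 did not pass the rule. Raised and lowered follow the rule of the study, a log2 fold change of 1 or more in size together with an unadjusted P under 0.05, here from limma on log2(normalized count + 1). By that rule 3.35% of the 28522 genes tested were raised and 3.04% lowered, 6.39% in all. Values were higher in hTNFtg SFs for 8 of the 10 members and for 47.2% of all genes, and the median log2 fold change was 1.17 over the members and 0.00 over all genes. After Benjamini-Hochberg adjustment over all genes, limma called 0 of the 10 members at 0.05 (0.48% of all genes), 6 members had an unadjusted P under 0.05 (7.72% of all genes), and edgeR on approximate reads called 5 (3.21% of all genes). Without hTNFtg replicate 1, the shallow library, 6 members were raised and 1 lowered, and 8.34% of all genes passed the rule in either direction.

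**Figure D1:**
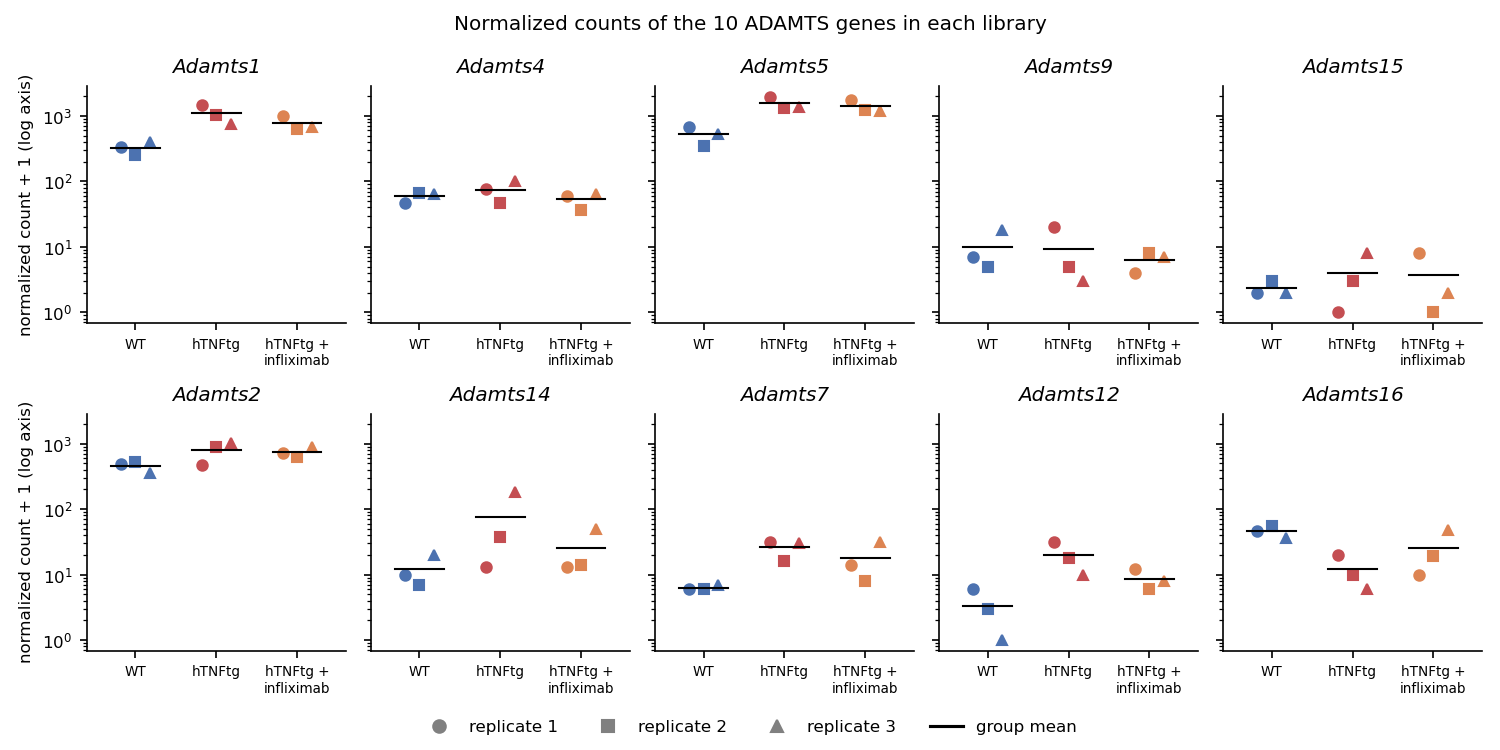
Normalized count plus 1 (log axis) of the 10 ADAMTS genes in each of the 9 libraries, with symbols for the replicate and a line for the group mean. Adamts1 and Adamts5 sit higher in all 3 hTNFtg libraries than in all 3 WT libraries, Adamts16 sits lower, and the infliximab libraries of each gene overlap the untreated hTNFtg libraries.

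Among the proteases that cut aggrecan or versican, Adamts1 and Adamts5 rose about 3-fold, while Adamts4, the other classical aggrecanase, did not pass the rule. Adamts1, which cuts both proteoglycans, was at 332, 250 and 393 normalized counts in WT replicates 1 to 3 and at 1476, 1047 and 755 in hTNFtg. All hTNFtg libraries lay above all WT libraries, and the log2 fold change was 1.72 (standard error, SE, 0.33, 3.29-fold, adjusted p = 0.0558). Adamts5, the main aggrecanase of mouse cartilage, was at 685, 342 and 535 in WT and at 1962, 1324 and 1363 in hTNFtg. Its groups did not overlap either, with a log2 fold change of 1.60 (SE 0.35, 3.04-fold, adjusted p = 0.0830). In all, 4 members lay above WT without overlap, as did 5.63% of all genes, and Adamts16 lay below it, as did 5.80%. In hTNFtg replicate 1 the values of Adamts1 and Adamts5 rest on 237 and 315 reads. Both genes passed the rule whichever library was left out, with log2 fold changes of 1.47 to 1.96 for Adamts1 and 1.33 to 1.83 for Adamts5.

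Adamts4 was at 46, 66 and 63 normalized counts in WT and at 75, 45 and 100 in hTNFtg SFs. The groups overlapped, and the log2 fold change of 0.27 had a 95% interval of -0.59 to 1.13, which leaves room for a rise of more than 2-fold. With limma's array quality weights it was -0.23. The ratio of Adamts4 to Adamts5 within a library, which does not depend on a scaling factor shared by its genes, was 6.72%, 19.3% and 11.8% in WT and 3.82%, 3.40% and 7.34% in hTNFtg. Its WT and hTNFtg values overlapped through WT replicate 1 and hTNFtg replicate 3. Adamts9 and Adamts15, which cut versican and aggrecan, were low and scattered. Adamts9 was at 6, 4 and 17 in WT and at 19, 4 and 2 in hTNFtg, where 19 in replicate 1 amounts to 3 reads, while 17 in WT replicate 3 amounts to 26. Adamts15 had 1, 2 and 2 reads in WT and 0, 2 and 13 in hTNFtg. Both genes overlapped between the groups and did not pass the rule.

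The COMP-cleaving pair, Adamts7 and Adamts12, rose from a low level. Adamts7 was at 5, 5 and 6 normalized counts in WT and at 31, 15 and 29 in hTNFtg SFs. Its lowest hTNFtg library was thus above its highest WT library, with a log2 fold change of 1.98 (SE 0.66, adjusted p = 0.353). Tbc1d2b, whose gene model overlaps its 3′ end, stood at 276, 230 and 143 in WT and at 93, 218 and 95 in hTNFtg. Adamts12 was at 5, 2 and 0 in WT and at 31, 17 and 9 in hTNFtg, again without overlap, with a log2 fold change of 2.77 (SE 0.92, adjusted p = 0.353). This size is loose. It was 2.08 without WT replicate 3, 3.37 without WT replicate 1 and 1.66 with a pseudocount of 5, and passed the rule each time. In hTNFtg replicate 1 both genes rest on 5 reads each. Summed over the pair, WT libraries held 6 to 10 normalized counts and hTNFtg libraries 32 to 62.

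The procollagen N-proteinases Adamts2 and Adamts14, which trim the N-terminal propeptide from collagen I and its relatives, differed in level and in spread. Adamts2 was at 493, 533 and 355 in WT and at 473, 902 and 1010 in hTNFtg SFs. Replicate 1 of hTNFtg lay within the WT range and the other two above it. The log2 fold change was 0.73 with a 95% interval of -0.04 to 1.51 and did not pass the rule. Without hTNFtg replicate 1, where Adamts2 rests on 76 reads, it was 1.07 and passed. Adamts14 was at 9, 6 and 19 in WT and at 12, 36 and 179 in hTNFtg, so that replicate 3 alone held most of the hTNFtg signal and replicate 1 lay within the WT range. Its log2 fold change of 1.98 (SE 0.86, 95% interval 0.10 to 3.87, adjusted p = 0.604) passed the rule by a small margin. It was 0.97 without hTNFtg replicate 3 and 2.87 without hTNFtg replicate 1, and the call was lost without hTNFtg replicate 2 or 3 and without any one WT library, as it was with a pseudocount of 5 or with only genes of a mean of at least 10. In contrast, edgeR on approximate reads, which weighs libraries by their depth, gave 2.79 with an adjusted p of 2.33e-06.

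Adamts16, a protease described as cutting fibronectin, was the member that fell. It was at 45, 54 and 35 normalized counts in WT and at 19, 9 and 5 in hTNFtg SFs. All hTNFtg libraries lay below all WT libraries, by a log2 fold change of -2.08 (SE 0.59, 4.23-fold, adjusted p = 0.218). The 19 in replicate 1 amounts to 3 reads, and without that library the log2 fold change was -2.54. It passed the rule whichever library was left out.

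**Figure D2:**
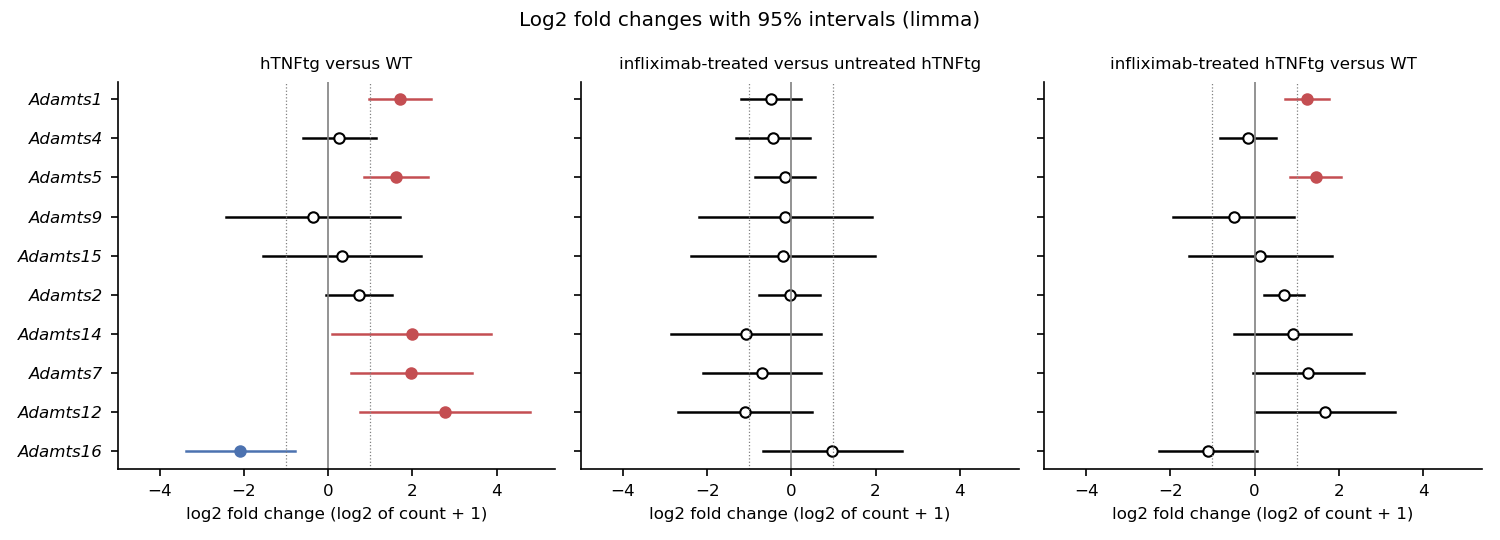
Log2 fold changes of the 10 members with 95% intervals from limma in the 3 comparisons, with red for raised, blue for lowered and open black for members that did not pass the rule, and dotted lines at a log2 fold change of 1 in either direction. The interval of Adamts1 runs from 0.98 to 2.45 in hTNFtg versus WT and from -1.20 to 0.24 in infliximab-treated versus untreated hTNFtg SFs.

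Summed over the 10 members, the libraries held 1264 to 1627 normalized counts in WT, 3401 to 4098 in hTNFtg and 2593 to 3579 in infliximab-treated SFs. The WT range thus lay below both others, and the hTNFtg and infliximab ranges overlapped. Adamts5, Adamts1 and Adamts2 together made up 89.0% to 96.8% of the sum in every library, so the sum describes these 3 genes and says little of the others. Adamts1 stood at 48.5%, 73.1% and 73.5% of Adamts5 in WT, 75.2%, 79.1% and 55.4% in hTNFtg and 55.6%, 51.7% and 58.3% with infliximab, and these 3 sets overlapped. The share of Adamts2 in the sum was lowest, at 11.5%, in hTNFtg replicate 1. Between WT and hTNFtg SFs, 5 of the 7 macrophage markers were raised and 3 of the 7 chondrocyte markers (Sox9, Acan and Col9a1) were lowered, while Col2a1, Col11a1, Matn3 and Hapln1 did not pass the rule. Of the mural markers, Rgs5 was lowered (means of 27.3 in WT and 2.33 in hTNFtg) and was raised with infliximab (14.3), and Cspg4 was raised in infliximab-treated hTNFtg versus WT SFs (261 against 114). Of the 6 hepatocyte markers, Alb (means of 0.33 in WT and 6.33 in hTNFtg) and Fgb (0 and 2.67) were raised, both at a few reads. The part of these markers in the members' results was not tested.

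**Figure D3:**
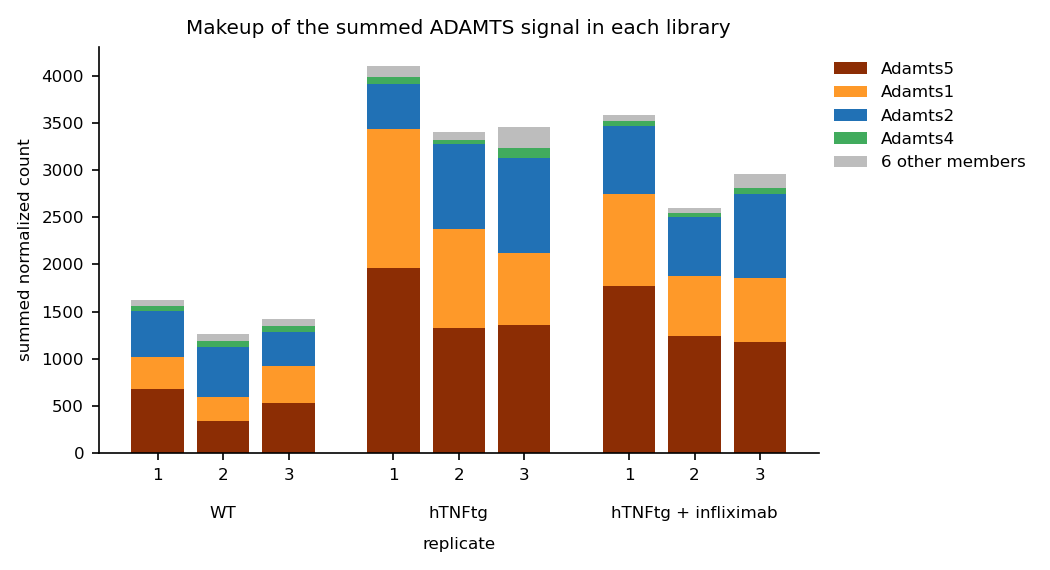
Summed normalized counts of the 10 members in each library, split into Adamts5, Adamts1, Adamts2, Adamts4 and the 6 other members. All 6 bars of hTNFtg SFs, untreated or with infliximab, are taller than the 3 WT bars, and the 6 other members form a thin top layer.

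The second comparison, infliximab-treated versus untreated hTNFtg SFs, asks what TNF blockade changes in the arthritic cells. It shares the untreated hTNFtg libraries with the first. Over 13600 genes, deviations of each untreated library correlated best with the same-numbered infliximab library. The values were 0.070, 0.20 and 0.27, against at most 0.029, 0.13 and -0.16 for other numbers. Whether these libraries are paired is not known. By limma, 0 of the 10 members passed the rule, against 2.43% of the 28540 genes tested (1.49% raised and 0.936% lowered), and 0 had an unadjusted P under 0.05 (3.59% of all genes), the smallest being 0.157 for Adamts12. After adjustment limma called 0 members and 0 of all genes (0%), of which 1026 had an unadjusted P under 0.05. The infliximab and untreated libraries of every member overlapped, whereas 3.99% of all genes lay above and 3.44% below without overlap. With array quality weights 2 members passed the rule (Adamts12 and Adamts14, both lower), as did 7.51% of all genes, and with edgeR 2 passed it (Adamts14 lower, Adamts16 higher), as did 4.30%.

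Adamts5 was at 1767, 1240 and 1174 normalized counts with infliximab, overlapping the untreated libraries (1324 to 1962). Its log2 fold change was -0.15 with a 95% interval of -0.87 to 0.56. Adamts1 was at 983, 641 and 684, with a log2 fold change of -0.48 and an interval of -1.20 to 0.24. These intervals leave room for a fall of Adamts1 by more than 2-fold but not of Adamts5, and neither excludes no change. Adamts2 was at 715, 626 and 890, with a log2 fold change of -0.04 and an interval of -0.77 to 0.69. Adamts4 was at 59, 36 and 64, with a log2 fold change of -0.43 and an interval of -1.30 to 0.44.

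Low members were less certain. Adamts14 was at 12, 13 and 49 with infliximab, and replicate 3 was again the highest of its group. Its log2 fold change was -1.08 with an interval of -2.86 to 0.69. With 1 library left out it ranged from -1.97 (without hTNFtg replicate 1) to -0.07 (without hTNFtg replicate 3). By edgeR on approximate reads it was -1.70 with an adjusted p of 0.0202, where the other settings gave adjusted p-values from 0.300 upward. Adamts7 was at 13, 7 and 31 (log2 fold change -0.70) and Adamts12 at 11, 5 and 7 (log2 fold change -1.11). Adamts16 was at 9, 18 and 47, and replicate 3, the library with hepatocyte markers, lay within the WT range. Its log2 fold change of 0.98 had an interval of -0.67 to 2.62 and became 0.38 without infliximab replicate 3. Adamts9 (3, 7 and 6) and Adamts15 (7, 0 and 1) also overlapped the untreated libraries. Over the members, the median log2 fold change was -0.31, against 0.00 over all genes, and 1 of 10 was higher with infliximab, against 51.1% of all genes tested.

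The third comparison, infliximab-treated hTNFtg versus WT SFs, gives what was left of the difference after treatment, and shares its libraries with the other two. Adamts1 and Adamts5 were raised, 0 members were lowered, and 3.86% of the 28243 genes tested were raised and 2.95% lowered (6.81% in all). The log2 fold change was 1.24 for Adamts1 (SE 0.23, 2.36-fold, adjusted p = 0.0508) and 1.45 for Adamts5 (SE 0.27, 2.73-fold, adjusted p = 0.0503). Both passed the rule whichever library was left out. Every infliximab library of both genes lay above every WT library, as it did for Adamts2 and Adamts7, 4 members in all against 7.14% of genes, and 0 members lay below WT without overlap, against 7.07%. By limma 0 members had an adjusted p under 0.05 (0.74% of all genes) and 3 an unadjusted P under 0.05 (11.9% of all genes), whereas edgeR on approximate reads called Adamts1 and Adamts5 and 4.69% of all genes.

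For Adamts2 the log2 fold change was 0.70 with an interval of 0.21 to 1.18 (adjusted p = 0.209), under the size that the rule asks for. Adamts7 at 1.28, Adamts12 at 1.67 and Adamts16 at -1.11 did not pass the rule, with adjusted p-values of 0.439, 0.420 and 0.450. Each passed it when 1 particular library was left out, with values of 1.74 for Adamts7 without infliximab replicate 2, 2.26 for Adamts12 without WT replicate 1 and -1.71 for Adamts16 without infliximab replicate 3. Leaving out other libraries brought them as far down in size as 0.74 for Adamts7 (without infliximab replicate 3), 0.97 for Adamts12 (without WT replicate 3) and -0.58 for Adamts16 (without infliximab replicate 1). Adamts14 (0.90), Adamts4 (-0.16), Adamts9 (-0.50) and Adamts15 (0.14) had adjusted p-values from 0.635 upward by limma. Adamts14 ranged from 0.27 without infliximab replicate 3 to 1.32 without WT replicate 3. By edgeR on approximate reads it was 1.13 and passed the rule (adjusted p = 0.248). The median log2 fold change was 0.80 over the members and 0.00 over all genes.

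The rest of the family lay below Adamts5, Adamts2 and Adamts1 in every library. Of 9 other ADAMTS proteases, Adamts19 was at 0 in every library, and 0 of the 8 tested passed the rule in hTNFtg versus WT, with a median log2 fold change of 0.02. Adamts10, which acts on fibrillin microfibrils, was the highest of them at 50.3 ± 16.5 in WT and 66.7 ± 21.0 in hTNFtg SFs (SD, n = 3). Adamts3, a procollagen N-proteinase like Adamts2 and Adamts14, was at 5, 4 and 3 in WT and at 0, 2 and 1 both in hTNFtg and in infliximab-treated SFs. Adamts20 was at 9, 5 and 5 in WT, 0, 2 and 3 in hTNFtg and 1, 0 and 1 with infliximab. Both were lowered in infliximab-treated hTNFtg versus WT SFs, where 2 of 8 passed the rule, and both rest on a few reads. Of 7 ADAMTS-like genes, which lack the protease domain, 0 passed the rule in any comparison. Adamtsl4 (mean of 91.7 in WT) and Adamtsl1 (90.7) were the highest of them in WT.

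Of the genes that inhibit or clear ADAMTS proteases, Timp1, Timp2, Timp3 and Lrp1 were abundant, and Timp4 and A2m were at most at 23 and 6 normalized counts in any library. Of 6 tested, 1 was raised and 1 lowered in hTNFtg versus WT SFs, with a median log2 fold change of 0.50. Timp3, the main tissue inhibitor of the aggrecanases, was at 2354, 1919 and 1763 in WT and at 4005, 3022 and 2791 in hTNFtg. All hTNFtg libraries lay above WT, but the change stayed under the size that the rule asks for. Timp1, which acts mostly on matrix metalloproteinases, was raised by a log2 fold change of 1.14 (adjusted p = 0.398). Timp4 was lowered, at 3, 3 and 23 in WT and 0, 3 and 0 in hTNFtg, and its groups overlapped. Lrp1, the endocytic receptor that takes up ADAMTS4 and ADAMTS5, was at 593 to 711 in WT and 936 to 1004 in hTNFtg, without overlap and without passing the rule. In infliximab-treated versus untreated hTNFtg SFs 0 of the 6 passed, and against WT Timp4 (0, 0 and 1 with infliximab) was lowered.

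Of 8 genes that activate or modify ADAMTS proteases, 0 were raised and 1 lowered. Pcsk6, a proprotein convertase that can activate aggrecanases, was at 201, 372 and 297 in WT, 50, 111 and 170 in hTNFtg and 85, 107 and 56 with infliximab. Both hTNFtg groups lay below WT, by a log2 fold change of -1.51 (adjusted p = 0.234) untreated and -1.80 (adjusted p = 0.0322) with infliximab. Furin, the more general convertase, was at 551 ± 68.4 in WT and 663 ± 231 in hTNFtg SFs (SD, n = 3) and did not pass.

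Among the substrates, versican and COMP transcripts moved in opposite directions. Of 8 tested in hTNFtg versus WT SFs, 1 was raised and 2 were lowered, with a median log2 fold change of -0.64. Vcan, encoding versican, was at 209, 168 and 157 in WT and at 498, 543 and 763 in hTNFtg, without overlap and with a log2 fold change of 1.74 (SE 0.29, adjusted p = 0.0274). Comp was at 5353, 4373 and 7288 in WT and at 299, 848 and 550 in hTNFtg, with a log2 fold change of -3.42 (SE 0.42, adjusted p = 0.00752). Its highest hTNFtg library thus lay far under its lowest WT library. A link between this fall of Comp transcripts and the rise of the COMP-cleaving Adamts7 and Adamts12 was not tested. Acan, encoding aggrecan, was lowered, at 16, 16 and 5 in WT and 0, 1 and 0 in hTNFtg. At most 1 read per hTNFtg library stands behind it, so no fold is given. Acan is a chondrocyte marker, and Sox9, another of them, fell by 2.95 on the log2 scale (adjusted p = 0.00492). Fn1, encoding fibronectin, was at 7981 ± 129 in WT and 7920 ± 2015 in hTNFtg (SD, n = 3).

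With infliximab, 1 of the 8 substrates passed the rule against untreated hTNFtg SFs. Against WT, 1 was raised (Vcan) and 3 were lowered (Comp, Acan and Ncan). Acan (means of 12.3 in WT and 1.33 with infliximab) and Ncan (17.7 and 7.67) were low in both groups. Comp was at 1933, 1355 and 573, higher than untreated by a log2 fold change of 1.14 (adjusted p = 0.803), with replicate 3 inside the untreated range. It remained below WT by a log2 fold change of -2.28 (adjusted p = 0.0403). Vcan was at 449, 515 and 629, above WT by 1.57 on the log2 scale (adjusted p = 0.0180) and overlapping the untreated libraries. Sox9 was also raised with infliximab, by 1.10 on the log2 scale (adjusted p = 0.803), and the part of chondrocyte markers in the change of Comp was not tested.

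Of the fibrillar procollagens and the other genes that process them, 11 of 12 could be tested, and 0 were raised and 1 was lowered in hTNFtg versus WT SFs. Col1a1, a substrate of Adamts2 and Adamts14, was at 19442 ± 3850 in WT and 15589 ± 954 in hTNFtg (SD, n = 3). Bmp1, the procollagen C-proteinase that trims the other end of the molecule, was at 587 ± 103 and 791 ± 313. Neither passed the rule. Pcolce2, an enhancer of that C-proteinase, was at 209, 219 and 154 in WT, 125, 60 and 25 in hTNFtg and 45, 55 and 61 with infliximab. It was lowered in both hTNFtg groups, by a log2 fold change of -1.72 (adjusted p = 0.231) untreated and -1.83 (adjusted p = 0.0171) with infliximab.

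**Figure D4:**
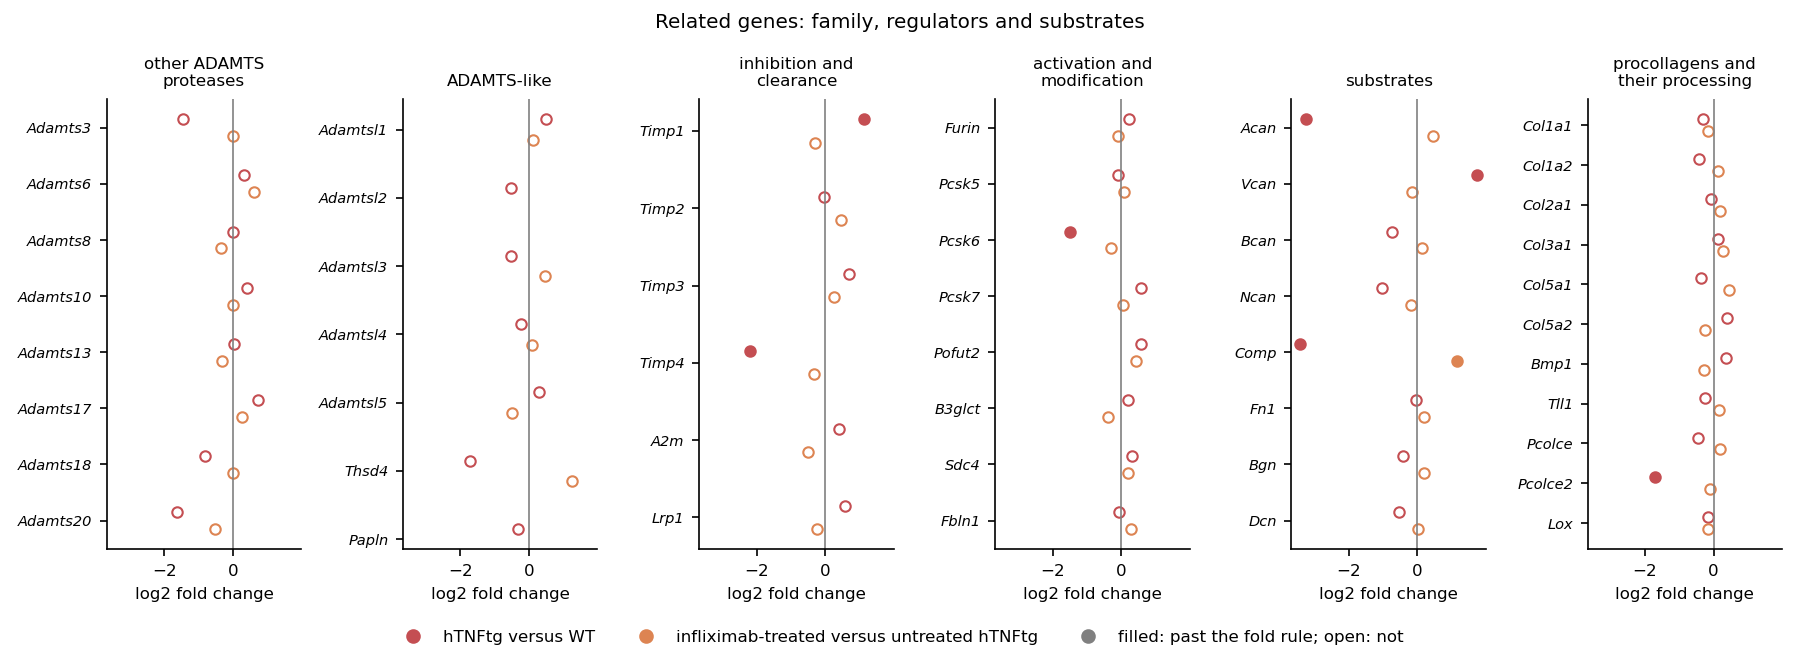
Log2 fold changes of related genes in 6 lists, in red for hTNFtg versus WT and in orange for infliximab-treated versus untreated hTNFtg SFs, filled where the gene passed the fold rule. Comp (-3.42) and Vcan (1.74) stand out among the substrates, Pcsk6 and Pcolce2 lie to the left, the other ADAMTS genes are all open, and the value of Acan rests on at most 1 read per hTNFtg library.

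**Figure D5:**
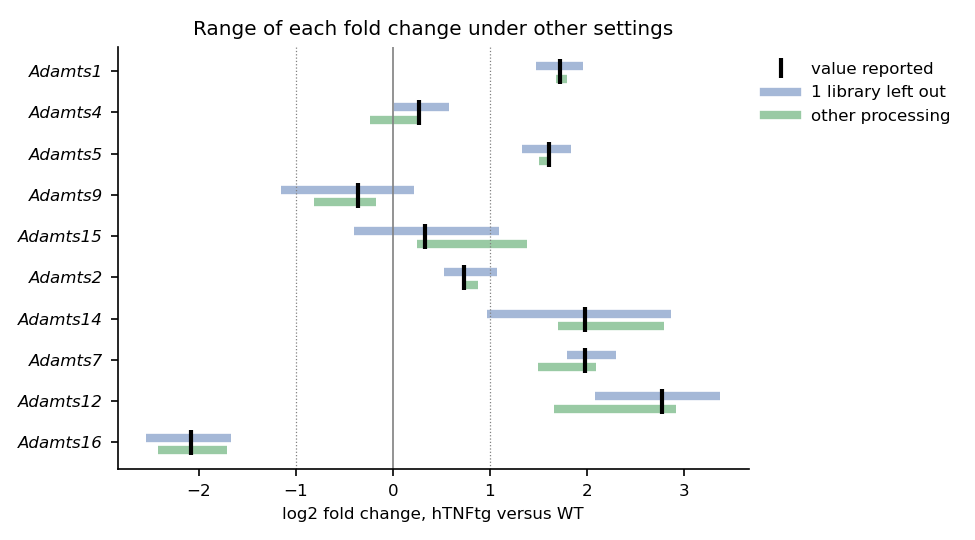
Range of each member's log2 fold change in hTNFtg versus WT SFs when 1 library was left out (blue) and under the other processing choices (green), with the reported value as a black mark. The ranges of Adamts1, Adamts5, Adamts7 and Adamts12 lie wholly above 1 and that of Adamts16 wholly below -1, Adamts14 reaches down to 0.97, and Adamts9 and Adamts15 cross 0 when 1 library was left out.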

How the data were processed

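RNA was measured by 3′ mRNA sequencing (QuantSeq, Ion Proton) in 9 libraries of mouse SFs, grouped by their labels into 3 groups of 3. The authors mapped reads to mm10 with TopHat2 and Bowtie2, counted them per gene with GenomicRanges and normalized the counts, with DESeq for their own tests, all through metaseqR. The normalization method is not named. Versions and counting strand are not given in the sources used here. The value deposited by the authors is a score, their normalized count in rounded form. For hTNFtg replicate 1, the deposited signal is a whole read count times a factor. The authors' own fold changes and p-values were not used, nor were 12 columns with a further normalization and 12 with log2 values.

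The members and lists were chosen with earlier results of these data known. Groups were compared in R 4.3.3 with limma 3.58.1 (lmFit, eBayes with trend, 2-sided) on log2(normalized count + 1), over the 6 libraries compared and each gene with a value above 0 in any of them. The rule for calls is that of the study, and p-values were adjusted by the Benjamini-Hochberg method over all genes. limma replaced the study's count test because the values are not counts. Approximate reads are normalized counts divided by what 1 read is worth, estimated from the gaps between values. At a tolerance of 0.1 read, 100% of the low values of hTNFtg replicate 1 were whole reads, against 2.20% to 51.2% elsewhere. They entered edgeR 4.0.16 (quasi-likelihood test), which called 915 genes at an adjusted p under 0.05 in hTNFtg versus WT SFs, against 137 by limma. Scripts were tested on simulated data, where the read estimate could fail for factors that are round numbers. All members are named, and of the lists the genes past the rule and the 3 highest in WT could be. The sum of chondrocyte markers without Sox9 was added after the values were seen. Promoters of Adamts4, Adamts5, Adamts7, Adamts15 and Adamts16 were not matched. Floors cover counting error only.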

Additional observations from a re-analysis of the deposited data

How the results depend on the processing

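Alternatives were a pseudocount of 5, genes with a mean of at least 10, rescaling by median ratios (which moved the median of all genes by less than 0.001), array quality weights, robust eBayes, all 9 libraries in one fit, the replicate number as a block, edgeR on approximate reads, and each library left out in turn. By the fold rule, the calls of Adamts1 and Adamts5 against WT were kept in all of them, though with the replicate block their adjusted p-values in hTNFtg versus WT were 0.507 and 0.478. For hTNFtg versus WT SFs, members with an adjusted p under 0.05 numbered 4 with array quality weights, 2 with robust eBayes, 2 with all 9 libraries and 5 with edgeR, where limma as reported gave 0. For the second comparison, 2 members passed the fold rule with weights and 2 with edgeR, and edgeR gave 1 past the adjusted threshold. For the third, members past the fold rule numbered 4 with weights (8.28% of all genes) and 5 with robust eBayes (7.72%) or edgeR (7.27%). They numbered 3 with rescaling (Adamts12 added, 6.60% of all genes) and 3 with a mean of at least 10 (Adamts16 added, lowered, 7.84% of genes tested). In the same comparison 2 members had an adjusted p under 0.05 with a pseudocount of 5 (0.751% of genes tested) and rescaling (0.751%). The same held with a mean of at least 10 (3.62%), weights (1.34%), robust eBayes (4.19%) and edgeR (4.69%). Array quality weights turned Adamts4 to -0.23 in the first comparison and Adamts15 to -0.10 in the third. In the second, they turned Adamts5 to 0.015 and Adamts9 to 0.24, and edgeR turned Adamts9 to 0.062. The cause was not tested. With 1 library left out, members past the fold rule numbered 5 to 7, 0 to 0 and 2 to 3 in the 3 comparisons. In the same fits, 5.02% to 8.91% of all genes passed it in the first comparison and 1.5% to 4.99% in the second. In the third, the share was 6.19% without WT replicate 3 and 9.11% without WT replicate 1. In hTNFtg versus WT, Adamts9 ranged from -1.15 to 0.22 and Adamts15 from -0.40 to 1.10. In the second, Adamts9 ranged from -0.72 to 0.65, Adamts15 from -1.03 to 0.54, Adamts2 from -0.37 to 0.17 and Adamts5 from -0.34 to 0.029. In the third comparison, Adamts9 ranged from -0.89 to 0.038, Adamts15 from -0.69 to 0.81 and Adamts4 from -0.32 to 0.091. Deviations over 13600 genes correlated at -0.15 to 0.35 (same number) and -0.49 to 0.24 (other numbers), so pairing is undecided. With the replicate block 6, 0 and 2 members passed the fold rule, as without it, and 5.82%, 2.12% and 6.01% of all genes did. Over all genes, the 137 adjusted calls in hTNFtg versus WT became 1004 with weights, 461 with robust eBayes, 381 with all 9 libraries, 915 with edgeR, 0 with the replicate block, and 4, 1 and 3 without WT replicates 1, 2 and 3 or 6, 17 and 44 without hTNFtg replicates 1, 2 and 3. The 1823 by the fold rule became 3540 with weights and 1183 with a mean of at least 10. With infliximab versus untreated, the 0 adjusted calls became 65 with weights, 3 with robust eBayes, 3 with all 9 libraries and 165 with edgeR, and the 693 by the fold rule 2144 with weights, 1228 with edgeR, 1050 with all 9 libraries, 351 with a pseudocount of 5, 314 with a mean of at least 10 and 418 to 1411 with 1 library left out. In infliximab-treated hTNFtg versus WT, the 209 adjusted calls became 488 with a mean of at least 10, 378 with weights, 1182 with robust eBayes, 1325 with edgeR, 69 with all 9 libraries, 0 with the block and 0 to 1 with 1 library left out, and the 1923 by the fold rule 1058 with a pseudocount of 5 and 1056 with a mean of at least 10. Depth limits Adamts7, Adamts9, Adamts12, Adamts14, Adamts15 and Adamts16 most, which have at most 5 reads in hTNFtg replicate 1.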
